A study of Rattus norvegicus with 20 samples.

Results

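The genes described here encode receptors and ligands of a pair of growth factor systems that act on sensory neurons. The GDNF arm held Gfra1, Gfra2, Ret and Gdnf, and the neurotrophin arm held Ntrk2, Ntrk3, Ngfr and Bdnf. They were chosen by name, as every probe set that the array's probe table assigns to 1 of these genes alone. This gave 21 of the 8740 probe sets tested, and 8 of the 4736 genes that had a probe set of their own. Gfra1 and Gfra2 had 2 probe sets each, Ret had 3 and Gdnf had 1. Ntrk2, Ntrk3 and Ngfr had 2 each and Bdnf had 7. No probe set that the probe table assigns to several genes included any of them. Whether the probes of these sets also match other transcripts was not checked.

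Ganglia of the dorsal roots, where sensory neurons have their cell bodies, were collected from the operated side of rats after chronic constriction injury (CCI) of the sciatic nerve, after surgery of the Seltzer model, or after sham surgery. In CCI the nerve is tied loosely. The Seltzer model is usually a partial injury of the same nerve, but the labels call it a transection. The 6 CCI samples comprised 3 at 14 days and 3 at 21 days. Seltzer surgery and sham surgery contributed 7 samples each, in both cases 2 at 14 days, 3 at 21 days and 2 at 50 days. Total RNA of each of the 20 samples was read on 1 Affymetrix rat genome array. The labels give no strain, sex or age, and do not say which ganglia were taken, whether animals were pooled, or whether each sample came from its own animal. The p-values below measure the spread between samples, which may be technical.

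GDNF signals through a receptor of 2 parts: Gfra1, which is anchored to the outer face of the cell membrane and binds the ligand, and Ret, a tyrosine kinase that spans the membrane and carries the signal into the cell. Gfra2 is the matching ligand-binding part for neurturin, a relative of GDNF. In rodent ganglia Ret is known from the non-peptidergic nociceptors and from a share of the large neurons. Ntrk2 and Ntrk3 are the tyrosine kinase receptors for BDNF and neurotrophin-3, Ngfr is the receptor that binds all neurotrophins, on neurons and on Schwann cells, and Bdnf is a ligand that some nociceptors make themselves.

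Values are deposited intensities on a linear scale, and 28.9% of all values were below 0. The 95th percentile of the absolute negative values of an array served as its background level. This was 169 to 326 for 17 arrays, 499 for replicate 1 of CCI at 21 days, and 599 and 766 for Seltzer at 50 days. The median intensity was 43.2 to 52.9 on those 17 arrays, 76.5 on that CCI array, and 58.7 and 59.3 on the Seltzer arrays of 50 days. Those 50-day arrays stood apart in RNA quality too. Their GAPDH control signal was 5.10 and 8.89 times as high at the 3' end as in the middle of the transcript, against at most 2.85 times on the others. Of the 8 markers of ganglion neurons that were measured, 7 or 8 were above background on 50% or more of the arrays in every group. Skeletal muscle markers were also present and their summed intensity differed between groups, with 11552 to 13100 in CCI at 14 days and 1378 to 2360 in CCI at 21 days, against 5209 to 6004 in sham at 14 days and 5480 to 5653 in sham at 21 days. The part of muscle RNA in the results was not tested.

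Much of both arms lay in the background. Of the 21 probe sets, 1 (Ngfr X05137_at) was above background on all 20 arrays, 6 on some and 14 (66.7%) on none, against 67.8% on none among all probe sets tested. In the GDNF arm 4 of 8 probe sets were above background on at least 1 array, and in the neurotrophin arm 3 of 13. The single Gdnf probe set, both Ntrk2 probe sets and all 7 Bdnf probe sets were above background on no array. Changes below are differences of log2(intensity + 16), with values under 0 set to 0, and carry a standard error (SE) and an adjusted p from limma, corrected over all 8740 probe sets. They understate or overstate the change of a probe set near background, since they depend on the number added. A fold marked "at least" sets the dimmer arrays at their background level.

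Gfra1 and Ret were the genes of both arms with a probe set that passed the test in CCI. The stretches from 250 bases before to 50 bases after the start of each are shown because these are the genes the results turn on. RefSeq (GRCr8) places the Gfra1 window at chr1:267555762-267556061 and the Ret window at chr4:153040507-153040806, both on the minus strand, and 4 of the 8 genes had an entry. The sequences run 5' to 3' along the gene, and capitals mark a GC box (GGGCGG on either strand), the motif bound by Sp1.
Gfra1: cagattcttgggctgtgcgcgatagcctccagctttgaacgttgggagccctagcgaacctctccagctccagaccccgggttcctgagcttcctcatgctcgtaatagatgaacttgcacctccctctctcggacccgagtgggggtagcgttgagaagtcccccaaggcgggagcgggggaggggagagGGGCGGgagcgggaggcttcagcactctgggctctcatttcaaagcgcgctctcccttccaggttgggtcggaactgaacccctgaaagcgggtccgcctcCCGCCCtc
Ret: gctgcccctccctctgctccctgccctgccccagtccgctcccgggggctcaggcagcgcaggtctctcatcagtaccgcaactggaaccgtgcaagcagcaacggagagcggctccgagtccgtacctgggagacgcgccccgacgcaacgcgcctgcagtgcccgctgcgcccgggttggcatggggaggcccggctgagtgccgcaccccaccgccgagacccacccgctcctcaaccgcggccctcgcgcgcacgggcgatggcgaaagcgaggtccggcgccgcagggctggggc
The Gfra1 window held 2 GC boxes, 59 bases before and 42 bases after the start, and the Ret window held none. Neither window held an AP-1 motif (TGANTCA), a cAMP response element (TGACGTCA) or a TATA box (TATAAA), searched on both strands and free of overlap with each other. Among 33469 rat windows of this length, a GC box was found in 33.1%, an AP-1 motif in 7.33%, a cAMP response element in 1.83% and a TATA box in 14.2%. These are matches of letters, and binding was not measured.

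In ganglia after CCI, Gfra1 was higher than in sham ganglia and 1 of 3 Ret probe sets was lower, while no probe set of Gfra2, Gdnf or the neurotrophin arm passed the test as set. In 1 of 33 other ways of processing a neurotrophin probe set, Bdnf S76758_i_at, passed too. Over the mean of 14 and 21 days, 2 of the 21 probe sets passed, 1 higher and 1 lower, both in the GDNF arm. Among all probe sets 2.29% passed in this comparison. An unadjusted p under 0.05 (limma) was found for 9 of the 21, against 10.7% of all probe sets. These were 6 of 8 in the GDNF arm and 3 of 13 in the neurotrophin arm. The median change was 0.36 over the 8 probe sets of the GDNF arm and -0.11 over the 13 of the neurotrophin arm, against 0 over all probe sets. After Seltzer surgery 1 of the 21 passed, Gfra1 again, against 0.297% of all probe sets, and 4 of the 21 had an unadjusted p under 0.05, against 4.77%. The median changes there were 0.06 in the GDNF arm and -0.07 in the neurotrophin arm. Both comparisons use the same sham arrays.

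**Figure D1:**
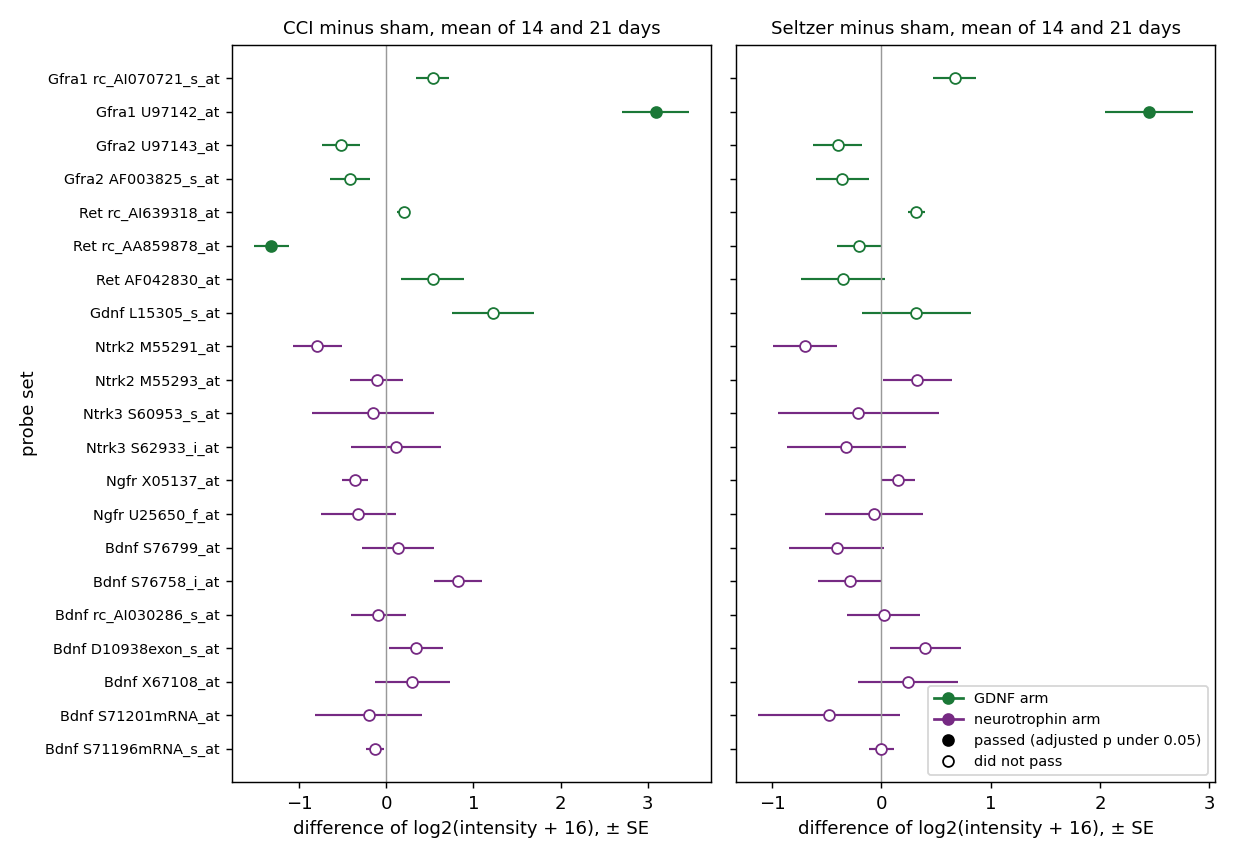
Difference of log2(intensity + 16) from sham, mean of 14 and 21 days, for the 21 probe sets of the GDNF arm (green) and the neurotrophin arm (purple), CCI on the left and Seltzer on the right. Points are the fitted differences, bars 1 SE, and filled points passed at an adjusted p under 0.05: Gfra1 U97142_at at 3.09 in CCI and 2.45 in Seltzer, and Ret rc_AA859878_at at -1.32 in CCI.

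Gfra1, the part of the receptor that binds GDNF, was read by U97142_at and rc_AI070721_s_at. U97142_at had intensities of 339, 331 and 233 in CCI ganglia at 14 days and 501, 287 and 317 at 21 days. In Seltzer ganglia it had 296 and 186 at 14 days and 183, 266 and 113 at 21 days. In sham ganglia it had 19.6 and 125 at 14 days and -4.46, 30.7 and -1.28 at 21 days. All 6 CCI and all 5 Seltzer arrays lay above every sham array of the same day. The signal was above background on all 6 CCI arrays and on 3 of the 5 Seltzer arrays, and on none of the sham arrays. On CCI 14-day replicate 3 and CCI 21-day replicate 1 it exceeded a background level of 232 and 499 by little.

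Relative to sham of the same day, Gfra1 U97142_at rose by 3.09 (SE 0.38, adjusted p = 0.000566) over the mean of 14 and 21 days in CCI, at least 1.40-fold, and was above the sham mean on 6 of 6 arrays. In bulk tissue, more cells of a type and more RNA per cell cannot be told apart. The size of the change hung on the treatment of low values: it was 0.70 (adjusted p = 0.0399) with values below 200 set to 200, and 4.69 (adjusted p = 0.00674) with 1 added in place of 16. At 21 days alone Gfra1 was at least 1.56-fold higher (log2 change 4.03, SE 0.51, adjusted p = 0.00107), a call lost with the floor at 200 (0.84, adjusted p = 0.158) and in a fit of the CCI and sham 21-day arrays alone (adjusted p = 0.157). At 14 days alone the difference was 2.15 (SE 0.57, adjusted p = 0.0717), at least 1.26-fold. The CCI effect at 21 minus 14 days was 1.88 (SE 0.76, adjusted p = 0.366), so a difference between the days was not detected.

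After Seltzer surgery Gfra1 U97142_at rose by 2.45 (SE 0.40, adjusted p = 0.0195) over the mean of 14 and 21 days, on 5 of 5 arrays. No fold is given, because the bound against the background level of the sham arrays was under 1. The call was lost in 6 of 33 other ways of processing, namely with a floor at 200 (0.21, adjusted p = 0.816), in a fit of the groups compared alone (adjusted p = 0.352), with 1 added in place of 16 (4.01, adjusted p = 0.0929), without all 21-day replicate 1 arrays (2.31, adjusted p = 0.0693), without the 50-day arrays (adjusted p = 0.0642) and without Seltzer 14-day replicate 1 (2.29, adjusted p = 0.0536). At 21 days alone the rise was 3.08 (SE 0.51, adjusted p = 0.0201), and the call was lost in 8 of 32 other ways of processing. It was lost with the floor at 200 (0.14, adjusted p = 0.898), in a fit of the Seltzer and sham 21-day arrays alone (adjusted p = 0.59), without the 50-day arrays (adjusted p = 0.063) and without all 21-day replicate 1 arrays (2.80, adjusted p = 0.158). It was also lost without any 1 of Seltzer replicates 1 and 2 and sham replicates 1 and 3 of that day (adjusted p between 0.0529 and 0.0868). At 14 days alone the difference was 1.83 (adjusted p = 0.911). CCI minus Seltzer was 0.64 (95% interval -0.19 to 1.46, adjusted p = 0.715), so the models were not told apart for this probe set.

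At 50 days U97142_at read -789 and -644 in Seltzer ganglia, against -168 and -29.2 in sham ganglia. All 4 values are below 0, so with the floor at 0 they give a difference of 0 and no information on the level of Gfra1. These floored values still enter the fit with no spread between arrays, which lowers the spread estimated for all groups. Without the 50-day arrays the adjusted p (limma) over the mean of 14 and 21 days was 0.00278 in CCI and 0.0642 in Seltzer. At 21 days alone it was then 0.00527 in CCI and 0.063 in Seltzer. The second probe set, rc_AI070721_s_at, read 120, 76.0 and 68.2 in CCI ganglia at 14 days and 56.8, 107 and 84.6 at 21 days. It read 110 and 125 in Seltzer ganglia at 14 days and 49.8, 118 and 65.0 at 21 days, against 61.3 and 61.9 in sham ganglia at 14 days and 48.8, 46.9 and 39.3 at 21 days. Every CCI and every Seltzer array lay above the sham arrays of its day, yet none of the 20 arrays was above background. The differences from sham were 0.53 in CCI (SE 0.19, adjusted p = 0.26) and 0.67 in Seltzer (SE 0.20, adjusted p = 0.408). The 2 Gfra1 probe sets had a Pearson r of 0.681 over the 18 arrays other than Seltzer at 50 days, and of 0.146 over all 20.

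**Figure D2:**
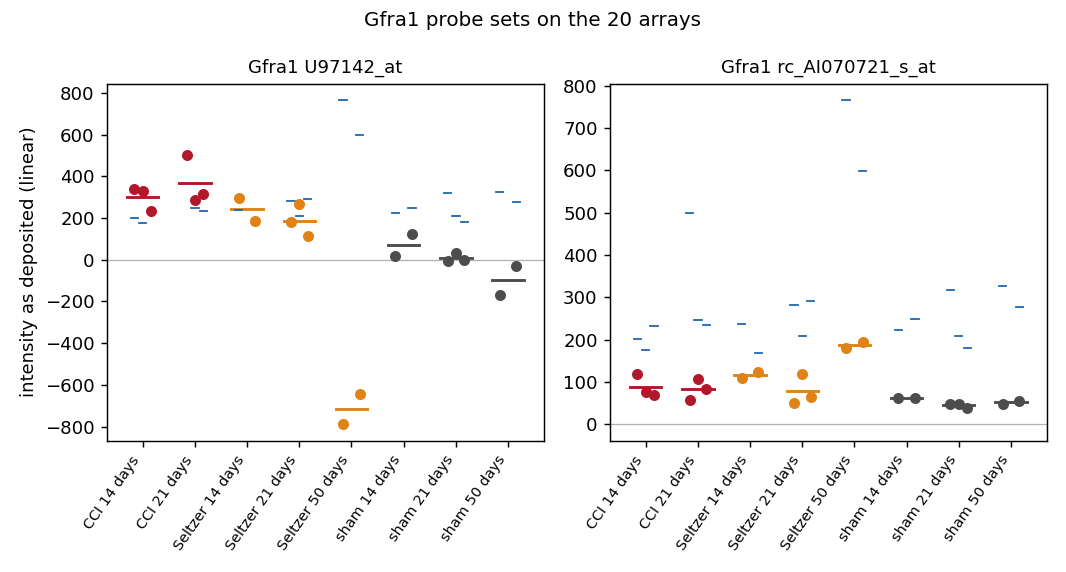
Deposited intensity (linear) of the 2 Gfra1 probe sets on each of the 20 arrays, by surgery and day. Points are arrays, coloured bars group means and blue ticks each array's background level. U97142_at lies at 113 to 501 on the CCI and Seltzer arrays of 14 and 21 days and at no more than 125 on the sham arrays, and rc_AI070721_s_at stays under the background level throughout.

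Some markers of macrophages, cells known to gather in ganglia after nerve injury, were higher where Gfra1 was higher at 14 and 21 days. The summed intensity of the 8 of 9 markers measured was 2474 to 3240 in CCI ganglia at 14 days and 2627 to 3374 at 21 days. It was 2551 to 2910 in Seltzer ganglia at 14 days and 1770 to 2426 at 21 days, against 1508 to 1978 in sham ganglia at 14 days and 1090 to 1609 at 21 days. Lyz2 (lysozyme) made up most of these sums, with 1727 to 2513 in CCI ganglia at 14 days against 946 to 1327 in sham ganglia, and Ctss (cathepsin S) read 314 to 364 in CCI ganglia against 119 to 127 in sham ganglia. Aif1, Ptprc, Itgam, Fcgr2b and C1qb were above background on none of the 20 arrays, Cd14 on 12, Ctss on 9 and Lyz2 on 19. Over the mean of 14 and 21 days Ctss rose by 1.42 in CCI (adjusted p = 6.99e-05) and by 1.08 in Seltzer (adjusted p = 0.00366), and Lyz2 rose by 1.21 in CCI (adjusted p = 0.00794) and differed by 0.86 in Seltzer (adjusted p = 0.247). None of the other 6 markers passed in either model, and Cd14 differed by -0.05 in CCI (adjusted p = 1) and by -0.21 in Seltzer (adjusted p = 1). Ptprc was lower in CCI ganglia at 14 days, with 51.7 to 53.3 against 126 to 164 in sham ganglia (-1.23, adjusted p = 0.782). At 50 days the marker sum was 1712 to 1941 in Seltzer ganglia, against 1040 to 1322 in sham ganglia. Lyz2 overlapped there, at 358 to 683 against 468 to 588. Cd14 read 670 to 736 against 209 to 356 and Ctss 266 to 321 against 103 to 132, where the Seltzer background levels were 599 and 766. U97142_at was below 0 in both groups at 50 days, which gives no Gfra1 level to set beside the sum. Of the 1673 genes compared, Lyz2 was also the gene whose profile was most like that of Gfra1 over the 20 arrays (Pearson r 0.936, Spearman rho 0.885), followed by the MHC class II invariant chain Cd74 (r 0.898, rho 0.822) and Ywhaq (r 0.850, rho 0.807), which encodes a 14-3-3 protein. U97142_at was below 0 on 6 of the 20 arrays, every 50-day array among them, and these enter r and rho at the same floored value. The 20 arrays share surgery, day and scaling, and the part of macrophages in the Gfra1 signal was not tested.

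**Figure D3:**
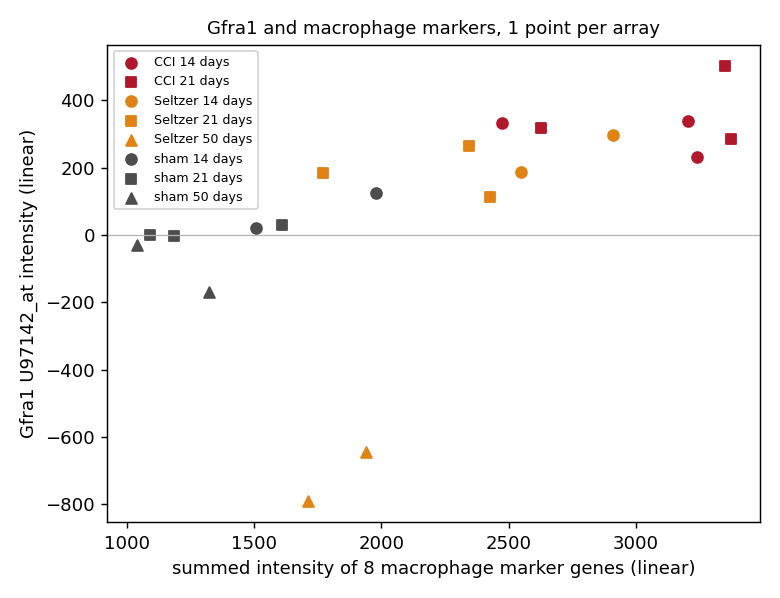
Gfra1 U97142_at intensity against the summed intensity of 8 macrophage marker genes, both linear, 1 point per array, with colour for surgery and shape for day. CCI arrays lie at 2474 to 3374 on the marker sum and at 233 to 501 on Gfra1, sham arrays of 14 and 21 days at 1090 to 1978 and at no more than 125.

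Ret, the kinase of the GDNF receptor, was read by 3 probe sets, which differed in direction. rc_AI639318_at had intensities of 1000, 968 and 1005 in CCI ganglia at 14 days and 1322, 1088 and 1074 at 21 days. In Seltzer ganglia it had 1193 and 1243 at 14 days and 1087, 1270 and 1002 at 21 days, against 966 and 857 in sham ganglia at 14 days and 950, 961 and 942 at 21 days. Each CCI and Seltzer array was above all sham arrays of its day, by little, and all 16 arrays were above background. The CCI array at 1322 was the one with the raised background level and median intensity. The differences were 0.20 in CCI (SE 0.08, adjusted p = 0.307), a ratio of 1.15, and 0.32 in Seltzer (SE 0.08, adjusted p = 0.194), a ratio of 1.25, and neither passed.

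The probe set rc_AA859878_at, for which the probe table gives Ret but no transcript accession, went the other way in CCI. It read 159, 243 and 101 in CCI ganglia at 14 days and 108, 124 and 101 at 21 days. It read 276 and 287 in Seltzer ganglia at 14 days and 342, 339 and 333 at 21 days, against 387 and 373 in sham ganglia at 14 days and 272, 405 and 339 at 21 days. Every CCI array lay under every sham and every Seltzer array of the same day. Only CCI 14-day replicate 2 of the CCI arrays was above background, against all 5 Seltzer arrays and 4 of 5 sham arrays.

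Relative to sham, Ret rc_AA859878_at fell by 1.32 in CCI over the mean of 14 and 21 days (SE 0.20, adjusted p = 0.00248) and was below the sham mean on 6 of 6 arrays, at least 1.36-fold. The call held in all 33 other ways of processing. At 21 days it fell by 1.46 (SE 0.26, adjusted p = 0.0181), a call lost in 7 of 32 other ways of processing. These were the floor at 200 (-0.74, adjusted p = 0.101), a fit of the CCI and sham 21-day arrays alone (adjusted p = 0.116), the loss of all 21-day replicate 1 arrays (adjusted p = 0.0867), and the loss of any 1 of CCI replicates 1 and 3 and sham replicates 2 and 3 of that day (adjusted p between 0.0597 and 0.0717). At 14 days the difference was -1.18 (SE 0.30, adjusted p = 0.0551), and it passed in 7 of 32 other ways of processing. In Seltzer ganglia the difference from sham was -0.20 (SE 0.21, adjusted p = 1, 95% interval -0.65 to 0.25). CCI minus Seltzer was -1.12 (SE 0.20, adjusted p = 0.0142), at least 1.18-fold lower, and without Seltzer 14-day replicate 2 it was -1.11 (adjusted p = 0.0641). It was the 1 probe set of 21 that passed between the models, against 0.927% of all probe sets.

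The third Ret probe set, AF042830_at, was above background on 0 of 20 arrays. It read 111, 152 and 153 in CCI ganglia at 14 days and 283, 158 and 181 at 21 days, against 83.8 and 113 in sham ganglia at 14 days and 136, 118 and 122 at 21 days, and the CCI array at 283 was the one with the raised background level. Its differences from sham were 0.53 in CCI (SE 0.36, adjusted p = 0.708) and -0.35 in Seltzer (SE 0.38, adjusted p = 1). Over the 18 arrays other than Seltzer at 50 days, the pairs of Ret probe sets had a Pearson r of -0.246, 0.0181 and -0.440. The files used here do not show which part of the transcript each probe set reads.

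**Figure D4:**
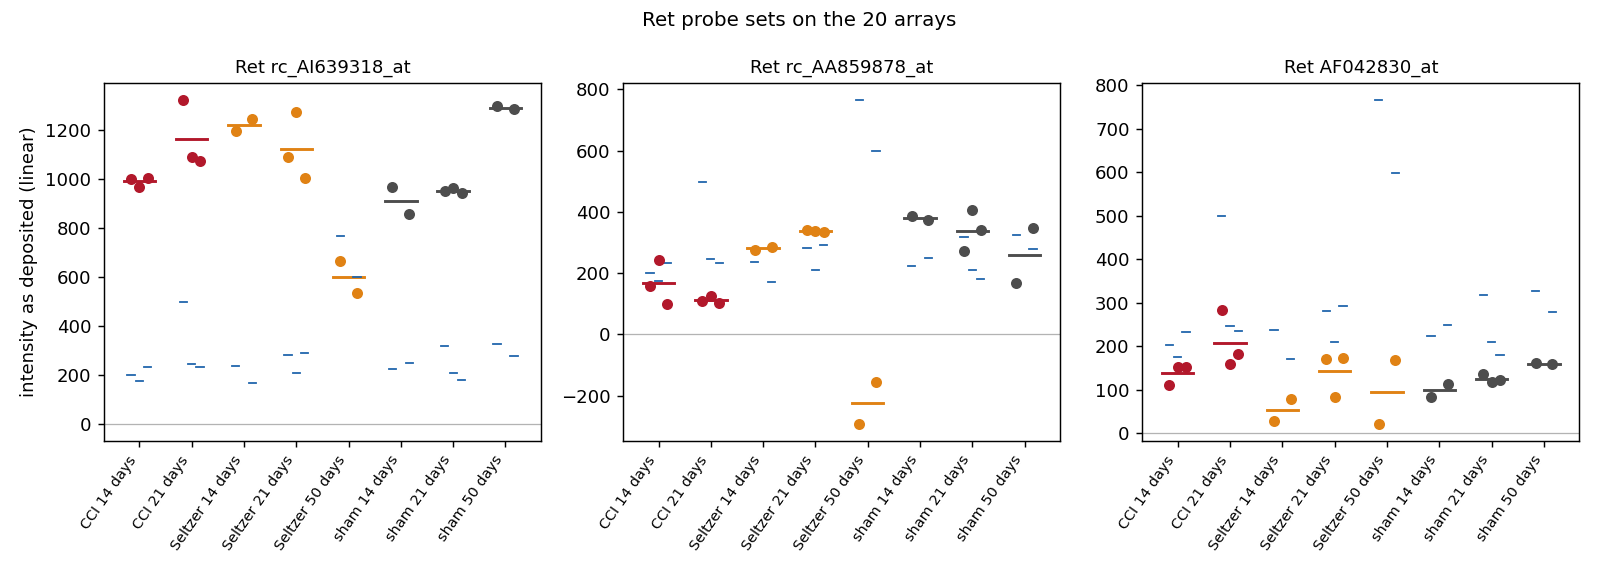
Deposited intensity (linear) of the 3 Ret probe sets on each of the 20 arrays, by surgery and day, with points for arrays, coloured bars for group means and blue ticks for each array's background level. rc_AA859878_at lies at 101 to 243 on the CCI arrays and at 272 to 405 on the Seltzer and sham arrays of 14 and 21 days, whereas rc_AI639318_at lies at 968 to 1322 on the CCI arrays and at 857 to 961 on those sham arrays.

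Of the 4 measured genes listed as markers of non-peptidergic nociceptors, a class that carries Ret, 3 were lower in CCI ganglia over both days. The sum of the 4 of 6 markers measured was 1665 to 1762 in CCI ganglia at 14 days and 1602 to 2043 at 21 days. It was 2404 to 3185 in Seltzer ganglia at 14 days and 2257 to 3000 at 21 days, against 3573 to 3943 in sham ganglia at 14 days and 2232 to 3248 at 21 days. The CCI arrays lay under the sham and Seltzer arrays on both days, and Cd55 was above background on none of the CCI arrays. In CCI over both days Scn10a fell by 1.06 (adjusted p = 0.00479), Scn11a by 1.11 (adjusted p = 0.000958) and Cd55 by 1.29 (adjusted p = 0.024), and P2rx3 differed by -0.37 (adjusted p = 0.503). By day the 3 falls passed at 14 days, with -1.47 for Scn10a (adjusted p = 0.00671), -1.44 for Scn11a (adjusted p = 0.00231) and -1.82 for Cd55 (adjusted p = 0.0315). At 21 days none passed, with -0.65 (adjusted p = 0.307), -0.77 (adjusted p = 0.113) and -0.77 (adjusted p = 0.417). The Ret probe set passed at 21 days and fell short at 14 days, but a difference of its CCI effect between the days was not detected. For the 3 markers that difference is not given here. Scn10a and Scn11a are sodium channels, Cd55 a complement regulator and P2rx3 an ATP-gated channel. Falls in CCI over both days were not limited to this class. Kcns1, a marker of large neurons above background on 2 arrays, fell by 1.89 (adjusted p = 0.0176). Snap25, a marker of neurons in general, fell by 0.60 (adjusted p = 0.00744). No other measured marker of general, large or peptidergic neurons passed there. The peptidergic sum was 2988 to 3302 in CCI ganglia at 14 days, against 3962 to 4054 in sham ganglia, and overlapped at 21 days. The part of any of these neurons in the Ret signal was not tested.

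Gfra2, the neurturin receptor part, passed as set in no comparison. U97143_at had 107, 181 and 125 in CCI ganglia at 14 days and 229, 193 and 149 at 21 days. It had 196 and 170 in Seltzer ganglia at 14 days and 245, 150 and 125 at 21 days, against 215 and 250 in sham ganglia at 14 days and 365, 200 and 186 at 21 days. The CCI arrays were below the sham mean of their day in 6 of 6 cases but overlapped with sham at 21 days, with a difference of -0.52 (SE 0.21, adjusted p = 0.373). In Seltzer the difference was -0.40 (SE 0.23, adjusted p = 1). At 50 days U97143_at had 267 and 182 in Seltzer ganglia, against 112 and 92.4 in sham ganglia, without overlap (1.01, SE 0.35, adjusted p = 0.0711), and this passed in 4 of 31 other ways of processing (lowest adjusted p = 0.0113). These 50-day values of U97143_at were all below the background level of their own arrays, and the probe set was above background on 5 of 20 arrays. AF003825_s_at, below background on every array at 50.3 to 293, gave -0.42 in CCI (adjusted p = 0.572) and -0.36 in Seltzer (adjusted p = 1).

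Gdnf itself, the ligand, read 31.8, 55.5 and 51.0 in CCI ganglia at 14 days and 118, 26.2 and 106 at 21 days. It read -62.5 and 42.5 in Seltzer ganglia at 14 days and 16.8, 45.4 and 48.0 at 21 days, against -47.6 and 23.4 in sham ganglia at 14 days and 2.27, 38.7 and 46.5 at 21 days. At 21 days the CCI array at 26.2 was below 2 of the 3 sham arrays, so the groups overlapped, and every value lay in the background. The difference was 1.22 in CCI (SE 0.47, adjusted p = 0.323) and 0.32 in Seltzer (SE 0.50, adjusted p = 1).

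Ngfr, the receptor common to the neurotrophins, had the only probe set of either arm that was above background on every array. X05137_at had intensities of 1580, 1636 and 1724 in CCI ganglia at 14 days and 882, 1584 and 1454 at 21 days. In Seltzer ganglia it had 1949 and 1687 at 14 days and 2246, 2305 and 2441 at 21 days, against 2189 and 1618 in sham ganglia at 14 days and 1554, 2011 and 1956 at 21 days. CCI overlapped with sham on both days, and Seltzer lay above sham at 21 days. Neither difference passed, with -0.36 in CCI (SE 0.15, adjusted p = 0.368) and 0.15 in Seltzer (SE 0.15, adjusted p = 1). CCI minus Seltzer was -0.50 (95% interval -0.82 to -0.19, adjusted p = 0.178; 0.036 with array weights), with 6 of 6 CCI arrays below the Seltzer mean of their day. The CCI array at 882 was the one with the raised background level, and without the 21-day replicate 1 arrays none of these differences passed either.

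The other Ngfr probe set, U25650_f_at, spread more within groups. It read 1681, 1118 and 1467 in CCI ganglia at 14 days and 717, 334 and 929 at 21 days, against 1250 and 481 in sham ganglia at 14 days and 1909, 1558 and 1710 at 21 days. At 21 days the 3 CCI arrays lay under all 3 sham arrays, with a difference of -1.48 (SE 0.57, adjusted p = 0.336), while at 14 days the difference was 0.84 (SE 0.64, adjusted p = 0.839). The Seltzer arrays at 21 days read 2903, 1646 and 986, which spans the sham values. The 2 Ngfr probe sets had a Pearson r of 0.550 over the 20 arrays.

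Ntrk3, the receptor for neurotrophin-3, was above background on 4 of 20 arrays with S60953_s_at and on none with S62933_i_at. S60953_s_at had 125, 137 and 59.4 in CCI ganglia at 14 days and 31.6, 56.7 and 85.0 at 21 days, against 52.4 and 9.95 in sham ganglia at 14 days and 458, 130 and 193 at 21 days. CCI lay above sham at 14 days and below it at 21 days, without overlap either time, and neither the differences (1.48, adjusted p = 0.788, and -1.79, adjusted p = 0.469) nor the change between days (-3.27, SE 1.40, adjusted p = 0.394) passed. Seltzer ganglia had -2.75 and 120 at 14 days and 382, 103 and 78.0 at 21 days, and overlapped with sham on both days.

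Ntrk2, the BDNF receptor, lay in the background on all arrays. M55291_at had 32.0, 62.3 and 45.8 in CCI ganglia at 21 days and 125, 68.1 and 46.4 in Seltzer ganglia, against 237, 121 and 121 in sham ganglia. The CCI arrays were all lower than the sham arrays, with a difference of -1.45 (SE 0.37, adjusted p = 0.12), and 1 Seltzer array overlapped with them. Over the mean of 14 and 21 days the differences were -0.79 in CCI (adjusted p = 0.261) and -0.70 in Seltzer (adjusted p = 0.977). M55293_at gave -0.11 in CCI and 0.33 in Seltzer (adjusted p = 1 in both).

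The 7 Bdnf probe sets were likewise in the background, and none passed as set in any comparison. Their differences from sham over the mean of 14 and 21 days ran from -0.20 to 0.82 in CCI and from -0.48 to 0.40 in Seltzer. Their intensities over the 20 arrays had medians from -27.6 for S71196mRNA_s_at, which was below 0 on 17 arrays, to 103 for S76799_at, which ran from 5.99 to 411. The highest difference, that of S76758_i_at in CCI, rested on 91.0, 104 and 88.2 in CCI ganglia at 14 days and 170, 97.9 and 112 at 21 days. Seltzer ganglia had 6.41 and 47.2 at 14 days and 116, 65.8 and 46.5 at 21 days, and sham ganglia had 52.7 and 36.6 at 14 days and 67.5, 63.5 and 68.0 at 21 days. Each CCI array lay above the sham arrays of its day, and the difference was 0.82 (SE 0.27, adjusted p = 0.214). It passed in a fit of the CCI and sham arrays alone (adjusted p = 0.0282). CCI minus Seltzer was 1.11 (SE 0.27, adjusted p = 0.0935), with overlap at 21 days, and it passed with array weights and without Seltzer 14-day replicate 2 (adjusted p = 0.0144). Among the other 6 Bdnf probe sets the adjusted p against sham was at least 0.785 in CCI and 1 in Seltzer.

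**Figure D5:**
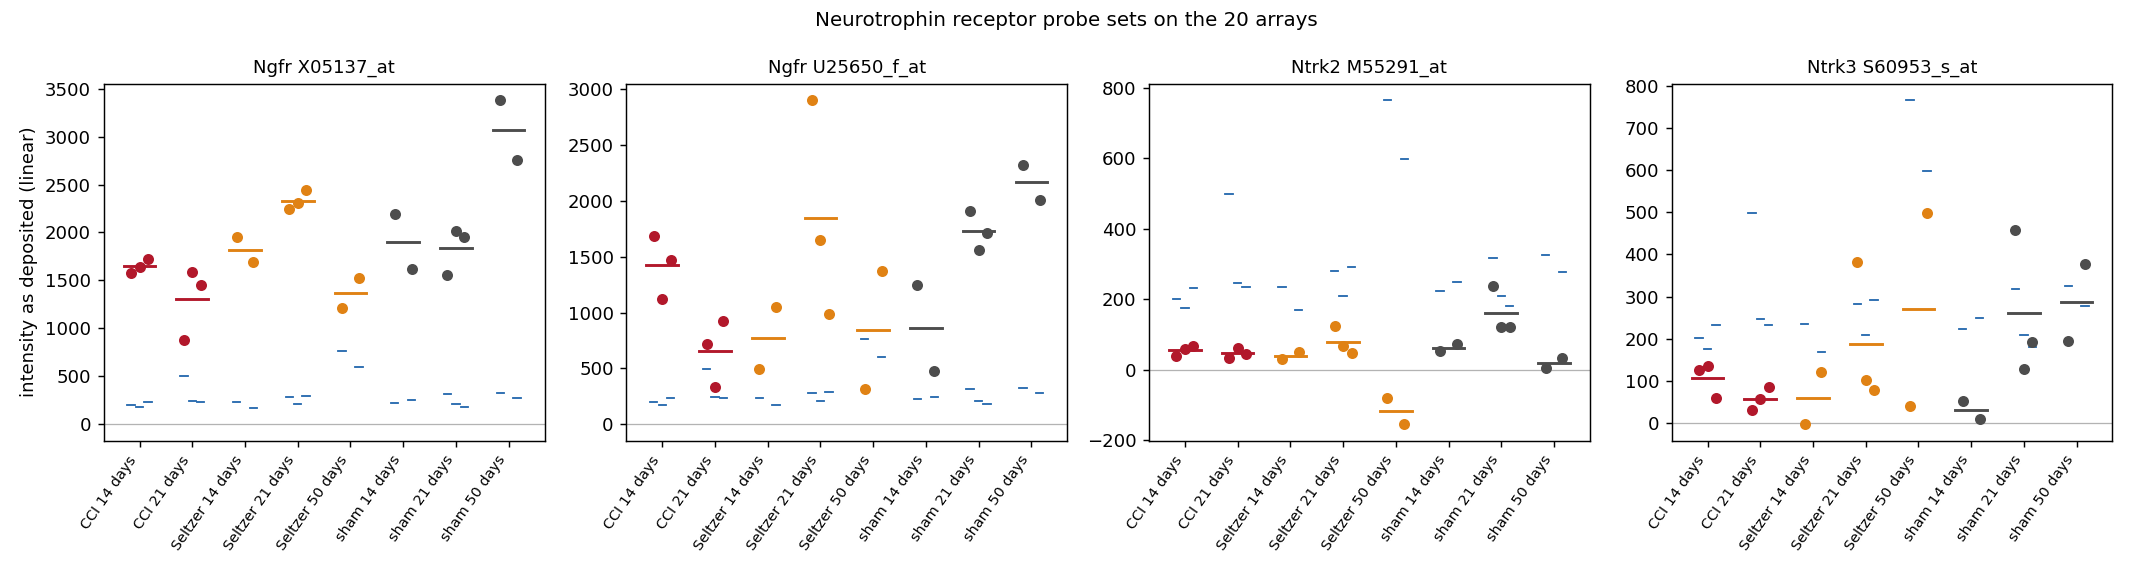
Deposited intensity (linear) of 4 neurotrophin receptor probe sets (2 for Ngfr, 1 each for Ntrk2 and Ntrk3) on each of the 20 arrays, by surgery and day, with points for arrays, coloured bars for group means and blue ticks for each array's background level. Ngfr X05137_at stays above background on every array, at 882 to 1724 in CCI and 1554 to 2189 in sham of 14 and 21 days, and Ntrk2 M55291_at stays below it on every array.

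By day, no probe set of either arm passed at 14 days. In CCI 0 of 21 passed in limma, against 2.78% of all probe sets, and 3 of 21 had an unadjusted p under 0.05, against 10.6%. In Seltzer 0 of 21 passed, against 0.206%, and 3 of 21 had an unadjusted p under 0.05, against 3.78%. At 21 days 2 of 21 passed in CCI (Gfra1 U97142_at and Ret rc_AA859878_at), against 0.927%, and 1 in Seltzer (Gfra1 U97142_at), against 0.378%. On that day 7 of 21 had an unadjusted p under 0.05 in CCI, against 12.3%, and 4 of 21 in Seltzer, against 6.6%. The CCI effect differed between 21 and 14 days for 0 of 21, against 1.8% of all probe sets, and 4 of 21 had an unadjusted p under 0.05, against 11.4%.

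At 50 days after Seltzer surgery, 5 of 21 probe sets passed against sham, 2 higher and 3 lower, where 15.9% of all probe sets passed and the Seltzer arrays were those of lower quality. An unadjusted p under 0.05 (limma) was found there for 7 of 21, against 29.7% of all probe sets. Ret rc_AI639318_at read 666 and 535 in Seltzer ganglia, against 1295 and 1285 in sham ganglia. It was at least 1.90-fold lower after Seltzer surgery (log2 change -1.09, SE 0.12, adjusted p = 8.12e-05). Ret rc_AA859878_at read -294 and -154 in Seltzer ganglia against 169 and 346 in sham ganglia, and fell by 4.02 (SE 0.32, adjusted p = 4.11e-06), a size set by the floor at 0, with no fold above the raised background. Its Seltzer values both enter the fit at that floor, without spread, so the SE and the adjusted p depend on the floor as well. Both Seltzer values of each Ret probe set were below the background level of their own arrays. In a fit of the 50-day arrays alone neither call held (adjusted p = 0.0678 for rc_AI639318_at and 0.0558 for rc_AA859878_at), and with the floor at 200 that of rc_AA859878_at did not (-0.40, adjusted p = 0.333).

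Ngfr X05137_at read 1208 and 1522 in Seltzer ganglia at 50 days, against 3382 and 2759 in sham ganglia. It fell by 1.16 (SE 0.24, adjusted p = 0.006), 2.25-fold lower, and the call was lost without Seltzer replicate 1 (adjusted p = 0.0559) or sham replicate 1 (adjusted p = 0.0546) of that day, and in a fit of the 50-day arrays alone (adjusted p = 0.0976). Gfra1 rc_AI070721_s_at rose by 1.57 (SE 0.31, adjusted p = 0.00437), with 180 and 195 in Seltzer ganglia against 48.5 and 56.0 in sham ganglia, and Ntrk2 M55293_at rose by 2.23 (SE 0.49, adjusted p = 0.00894), with 97.2 and 93.9 against 2.77 and 14.0 in sham ganglia. All 8 of these values were below background. The Ntrk2 call was likewise lost with the floor at 200 (0, adjusted p = 1), in a fit of the 50-day arrays alone (adjusted p = 0.0733), with 1 added in place of 16 (3.68, adjusted p = 0.0509) and without sham replicate 1 (1.89, adjusted p = 0.074). The Gfra1 call was lost with the floor at 200, where no difference was left (0, adjusted p = 1), with quantile normalization (0.99, adjusted p = 0.133) and with arrays centred on their median (1.24, adjusted p = 0.06).

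The size of the Seltzer effect depended on the day for 3 of 21 probe sets, against 6.13% of all probe sets: both of those Ret probe sets (adjusted p = 0.00026 for rc_AI639318_at and 0.000166 for rc_AA859878_at, F test in limma) and Ngfr X05137_at (adjusted p = 0.0261). Seltzer minus sham at 14, 21 and 50 days was 0.41, 0.23 and -1.09 for rc_AI639318_at, -0.41, 0.01 and -4.02 for rc_AA859878_at, and -0.05, 0.35 and -1.16 for Ngfr. Each stood apart at 50 days. The summed intensity of the skeletal muscle markers differed there too, with 4061 to 5083 in Seltzer ganglia against 903 to 1240 in sham ganglia. The part of RNA quality and the part of muscle RNA in the 50-day differences were not tested. With the floor at 200 the call of rc_AA859878_at was lost (adjusted p = 0.767), and that of Ngfr was lost in 6 of 31 other ways of processing, among them without Seltzer replicate 1 (adjusted p = 0.115) and without sham replicates 1 or 2 (adjusted p = 0.12 and 0.0563) of 50 days. For Gfra1 U97142_at the F test gave an adjusted p of 0.0889.

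By group means, Gfra1 U97142_at averaged 301 ± 59.2 in CCI at 14 days, 368 ± 116 in CCI at 21 days, 241 ± 78.1 in Seltzer at 14 days, 187 ± 76.5 in Seltzer at 21 days, 72.2 ± 74.4 in sham at 14 days and 8.33 ± 19.5 in sham at 21 days (SD). From the top the order was CCI, Seltzer and sham, and each of these groups overlapped with its neighbour in that order. The 50-day values, all below 0, give no level to place in this order. Ngfr X05137_at averaged 1646 ± 72.8 and 1307 ± 373 in CCI at 14 and 21 days, 1818 ± 185, 2331 ± 100 and 1365 ± 222 in Seltzer at 14, 21 and 50 days, and 1904 ± 404, 1840 ± 250 and 3071 ± 441 in sham at those days (SD). Sham at 50 days stood above all other groups, Seltzer at 21 days above the remaining ones, and sham at both earlier days overlapped with Seltzer at 14 days.

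By likeness over the 20 arrays, Ngfr X05137_at lay nearest to Atp5po, a subunit of the mitochondrial ATP synthase (r 0.907, rho 0.836), Thra, a thyroid hormone receptor (r 0.895, rho 0.850), and Dnm1, the neuronal dynamin (r 0.845, rho 0.755), of 1672 genes. Ret rc_AI639318_at lay nearest to Crabp2 (r 0.861, rho 0.633), Psmc1 (r 0.827, rho 0.629) and Rab6a (r 0.813, rho 0.574). Without the 2 arrays farthest from the median, those Ret values dropped to 0.526, 0.506 and 0.466. Gfra2 U97143_at lay nearest to Kcnk1 (r 0.837), Fhip2a (r 0.684) and Rabep1 (r 0.682), and Ntrk3 S60953_s_at to Pde4c (r 0.776), Nfyc (r 0.695) and Pax4 (r 0.692). With the 2 farthest arrays left out in the same way, r was 0.731, 0.570 and 0.495 for Gfra2 and 0.794, 0.665 and 0.464 for Ntrk3. Gdnf, Ntrk2 and Bdnf had too little signal for this.

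Few other genes of the same pathways passed, where the brightest probe set on average stood for a gene. Of 12 further GDNF family ligands, receptors and adaptors 4 were measured, and 0 passed in CCI or Seltzer over 14 and 21 days in limma, against 2.39% and 0.380% of all genes. In CCI the ligand Pspn (persephin) differed by 0.02, Gdf15, a ligand of a related receptor, by -0.23, Ncam1, a cell adhesion molecule that also binds GDNF, by 0.58 (adjusted p = 0.757), and Sdc3, a proteoglycan that binds GDNF, by 0 with every value below 0. Of 16 further neurotrophin genes 8 were measured, and again 0 passed in either model. Among them Ntf3, the ligand neurotrophin-3, was above background on all 20 arrays at 302 to 1322 and differed by 0.16 in CCI (adjusted p = 0.948) and by 0.27 in Seltzer (adjusted p = 1). Ntf4, a ligand of Ntrk2, differed by 0.56 in CCI (adjusted p = 0.891), and Sort1, a co-receptor of Ngfr, by 0.19 (adjusted p = 0.977). The median change in CCI was 0.01 over the first list and 0.175 over the second, against 0 over all genes.

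Of 51 genes of the signalling shared by both arms 33 were measured. Over the mean of 14 and 21 days 2 of the 33 passed in CCI, both lower, where 2.39% of all genes passed. In Seltzer 0 of the 33 passed, against 0.380% of all genes. Egr1, a transcription factor induced by growth factors, fell by 0.65 (SE 0.08, adjusted p = 0.000337), and Pdpk1, the kinase that activates Akt, fell by 1.54 (SE 0.31, adjusted p = 0.0176) without being above background on any array. The Egr1 change lay at 14 days, with -1.37 (SE 0.11, adjusted p = 8.53e-06) against 0.07 at 21 days (adjusted p = 0.851), and the difference between the days passed (1.43, adjusted p = 0.000133). CCI minus Seltzer was -0.76 for Egr1 (adjusted p = 0.00015). At 50 days after Seltzer surgery, where 18.1% of all genes passed, Pspn (1.55), Rap1b (1.10), Mapk14 (1.94) and Fos (1.58) rose and Ncam1 (-3.10) and Akt1 (-1.29) fell, with Pspn below background on all arrays.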

How the data were processed

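Affymetrix expression arrays, 1 per sample, were read for 20 rat dorsal root ganglion samples in 8 groups of surgery and day. Each value is the probe set intensity that the authors deposited, on a linear scale. How it was scaled is not given in the sources used here, and depth has no meaning for arrays, whose number limits the precision. The 59 control probe sets were left out, which left 8740. Of these 7006 had 1 gene symbol, 308 several and 1426 none, and 6985 of the 7006 matched a RefSeq rat gene.

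Values below 0 were set to 0, and log2(intensity + 16) was fitted in limma 3.58.1 (R 4.3.3) with 1 mean per group over all 20 arrays (12 residual degrees of freedom). Tests were two-sided with Benjamini-Hochberg adjustment over 8740 probe sets and a threshold of 0.05. The Seltzer mean covers 14 and 21 days, the days shared with CCI. Replicate numbers were checked for pairing: between Seltzer and sham at 21 days the deviations of same-numbered arrays had an r of 0.299, 0.226 and 0.11, all over 0.1, which was not so in every pair elsewhere. The genes, the pathway lists, the marker lists and the tests were chosen with earlier results of these data known. All probe sets of the 8 genes are named, as are the 3 genes most like each in profile, the pathway genes that passed and the ligands and receptors of those lists. Alternatives changed the added number, the floor, the normalization, the filter, the arrays fitted and the weights. For 3 CCI arrays the labels name a lot that equals the replicate number, and 0 pairs of arrays were identical (r 0.677 to 0.991).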

Additional observations from a re-analysis of the deposited data

Results flagged for a closer look

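Ret rc_AA859878_at differed between the models over the mean of 14 and 21 days, with CCI below Seltzer by a difference of -1.12 (adjusted p = 0.0142, limma). It read 101 to 243 on the 6 CCI arrays and 276 to 342 on the 5 Seltzer arrays, and 1 of the 6 CCI arrays was above background.

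The difference between Seltzer and sham changed with the day for Ret rc_AI639318_at (adjusted p = 0.00026), for Ret rc_AA859878_at (adjusted p = 0.000166) and for Ngfr X05137_at (adjusted p = 0.0261), by the F test in limma. In each case Seltzer lay below sham at 50 days, with means of 601 against 1290 in sham for rc_AI639318_at, -224 against 258 in sham for rc_AA859878_at and 1365 against 3071 in sham for Ngfr. For rc_AI639318_at and Ngfr, sham at 50 days also had the highest mean of all groups. For Ngfr the lowest mean was that of CCI at 21 days, at 1307, which overlapped with Seltzer at 50 days. The Seltzer 50-day arrays also had the highest background levels and the steepest 3' signal of the series. Their muscle marker sum was 4061 to 5083, against 903 to 1240 in sham at 50 days. The part of array quality and of muscle RNA was not tested.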

How the results depend on the processing

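No called probe set of the 8 genes turned its direction under any alternative run. The calls of Gfra1 U97142_at and Ret rc_AA859878_at in CCI over the mean of 14 and 21 days held in 33 of 33, with changes of 0.70 to 4.69 and of -1.47 to -0.79. With array weights, Gfra1 rc_AI070721_s_at passed in CCI (adjusted p = 0.0378), and Ret rc_AI639318_at in Seltzer (adjusted p = 0.0173), over the same days. For Gfra1 the CCI fold was at least 2.04 with background at the 90th percentile, and none could be given at the 99th. Array number and a signal close to background limit these results. The cause of the shifts below was not tested.

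Counts of probe sets that passed, against 200 for CCI and 26 for Seltzer over the mean of 14 and 21 days and 81 for CCI minus Seltzer, were 394, 63 and 278 without the 21-day replicate 1 arrays, 518, 77 and 309 with array weights, and 114, 16 and 43 with arrays centred on their median. CCI gave 86 with the 21-day sham as the only control. Seltzer gave 15 with only the groups compared and 383 as a mean over 14, 21 and 50 days. CCI minus Seltzer gave 50 without the dimmest 33.3% of probe sets and 132 with values below 200 set to 200.

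For CCI at 14 days the count was 243, against 610 without the 21-day replicate 1 arrays, 784 with weights, 146 centred, 153 without those dimmest probe sets and 514 with only the groups compared. For CCI at 21 days it was 81, against 136 with weights and 13 with only the groups compared. For Seltzer at 14 days it was 18, against 51 without those replicate 1 arrays, 66 with weights, 5 centred, 7 without those dimmest probe sets, 36 with the floor at 200 and 0 with only the groups compared (752 at an unadjusted p under 0.05, limma). For Seltzer at 21 days it was 33, against 20 without the 50-day arrays, 51 with weights, 9 centred, 9 without those dimmest probe sets, 21 with the floor and 0 with only the groups compared (461 unadjusted, limma). For Seltzer at 50 days it was 1391, against 2531 without the replicate 1 arrays and 841 with only the groups compared. For CCI at 21 minus 14 days it was 157, against 257, 344 with weights and 91 centred. For the Seltzer effect over days it was 536, against 1300, 959 with weights and 332 without those dimmest probe sets.

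Leaving out each replicate in turn gave 147 to 264 in CCI and 22 to 61 in Seltzer over both days, 62 to 152 for CCI minus Seltzer, 142 to 348 and 57 to 99 for CCI at 14 and 21 days, 13 to 56, 19 to 56 and 660 to 1892 for Seltzer at 14, 21 and 50 days, 118 to 177 for CCI at 21 minus 14 days and 316 to 909 over days. The arrays whose loss moved a count by over 1.5 times were CCI 21-day replicate 1 (Seltzer over both days 43, CCI minus Seltzer 152, Seltzer at 14 days 28, over days 909), Seltzer 14-day replicate 1 (61, and 56 at 14 days), sham 14-day replicates 1 and 2 (Seltzer over both days 48 and 41, at 14 days 39 and 29, and, for replicate 1, CCI at 14 days 142), sham 21-day replicate 1 (CCI minus Seltzer 133, Seltzer at 14 days 31), Seltzer 21-day replicates 1, 2 and 3 and sham 21-day replicate 3 (Seltzer at 21 days 19, 56, 20 and 21), and Seltzer 50-day replicate 1 and sham 50-day replicates 1 and 2 (Seltzer at 50 days 790, 799 and 660, and, for those sham arrays, over days 350 and 316). A group left with 1 array was assumed to vary like the others. In the fit with a replicate block, the counts were 177, 21, 82, 233, 78, 18, 24, 1416, 130 and 520 in the order of comparisons just given. No called probe set of the 8 genes lost its call under the block, and Gfra1 U97142_at in CCI at 14 days and Gfra2 U97143_at at 50 days passed under it.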
